A study of Homo sapiens with 9 samples.

Results

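GDF15, CDKN1A, GADD45A, GADD45B, PHLDA3, MDM2, SESN1, BBC3, FAS and TP53INP1 are 10 stress genes, most of them known to be induced by the transcription factor p53. They were taken by symbol from a table of 61093 genes. All 10 were found and all 10 passed the filter on low values (10 or more in 3 or more libraries), as did 17492 genes in all. The study sequenced RNA from cells labelled HepG2, a human hepatocellular line, in 3 groups of 3 libraries: cells given 2-APB, which the series text calls an agonist of the cation channel TRPV2, cells given SKF-96365, which it calls an inhibitor, and control cells, whose treatment label reads NULL. No dose, exposure time, vehicle or batch is labelled, the 2-APB libraries are titled ABP and their columns in the table are named TRPV2, and nothing says whether the libraries of a group are separate cultures, so errors and p-values measure only the spread between these libraries. The members were chosen by measured values as well as by name: group differences of these data were known, among them the levels of GDF15 in control and 2-APB libraries and the differences of GADD45A and PHLDA3 between them. Their values are therefore given as a description, with no test.

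p53 is held at a low level by MDM2, a ubiquitin ligase that it induces itself, and accumulates when DNA is damaged or ribosome assembly fails. Its targets stop the cell cycle, restrain growth signalling and, in some cells, start apoptosis. Several of the 10 genes answer to other factors: GDF15 is also a target of ATF4 and CHOP in the integrated stress response, and GADD45B is a target of NF-kB and TGF-beta signalling.

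The p53 response element is a pair of decamers with a conserved core. A 20-base search allowing 3 mismatches to the consensus, with no spacer between the decamers and on both strands, was run on RefSeq windows of 250 bases before to 50 bases after annotated gene starts (build GRCh38.p14). Of the 10 genes, 7 had windows, 14 in all, and GADD45A, PHLDA3 and TP53INP1 are named only. Matches were present for 4 of the 7, namely MDM2, FAS, SESN1 and GDF15. They are shown because these genes carry letters like those of a p53 element close to a start. Capitals mark the 20 matching bases, and each run reads 5′ to 3′ on the gene's strand.
MDM2, chr12:68808913-68808990, plus strand: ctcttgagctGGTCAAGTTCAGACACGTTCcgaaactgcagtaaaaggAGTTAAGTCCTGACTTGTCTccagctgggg
FAS, chr10:88991304-88991333, plus strand: ctcctGGACAAGCCCTGACAAGCCAagcca
SESN1, chr6:109009013-109009042, minus strand: cgtctGGACAAGTCTCCACAAGTCAgaaat
GDF15, chr19:18386186-18386205, plus strand: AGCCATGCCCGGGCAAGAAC

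The MDM2 run lies before the start of its inner promoter and within introns of all 7 annotated transcripts that span it in GENCODE 29. Its first element has 2 mismatches and its second has 3. The FAS element has 2 mismatches and lies in introns of most FAS transcripts that span it and in an exon of 2 of the 13, and an untranslated exon of ACTA2 on the other strand covers it. The SESN1 element has 3 mismatches and is intronic in both spanning transcripts. The GDF15 element has 3 mismatches, begins 29 bases into the first exon and runs across the end of the 5′ UTR into the coding sequence. Of all 35116 windows, 5.20% held a match with at most 3 mismatches and 0.649% one with at most 2. These shares are per window, while the matches above are counted per gene, and MDM2, FAS and SESN1 each had several windows. The windows of CDKN1A, GADD45B and BBC3 held no match, which says only that these letters are not in those 300 bases. A match is a description of sequence and not a measured binding site.

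Libraries sorted by their labels only in part. 2-APB 1 and 2-APB 2 were each other's closest libraries (Pearson r of 0.990), as were SKF-96365 2 and SKF-96365 3 (0.989). Control 3 resembled SKF-96365 2 and SKF-96365 3 (Pearson r across 17492 genes of 0.988 and 0.986) more than control 1 and control 2 (0.961 and 0.957). SKF-96365 1 resembled 2-APB 3 (0.988) and control 1 (0.984) more than SKF-96365 2 or 3 (0.972 and 0.971), and 2-APB 3 resembled 2-APB 1 less (0.980) than it did SKF-96365 1. Whether each of these libraries carries its right label cannot be told from the values, and every difference between groups below depends on the labels as given. The depth recovered from the values was 14786059 to 19026545 reads per library, and the smallest member count in any library was 69 reads. The hepatocyte genes ALB, AFP, APOA1, TTR and HNF4A were at or near 0 in all 9 libraries, with no value above 11.8, while the epithelial keratin gene KRT8 stood between 67866 and 92630 and the mesenchymal gene VIM between 25957 and 44039. The defining hepatocyte transcripts of the labelled cell type were thus absent or nearly so. Of the other hepatocyte genes described, SERPINA1 ranged from 207 to 523, and APOB and FGB stayed at or below 7.89. Of the leukocyte genes, PTPRC, CD3E and CD68 were at or below 6.94 in every library and CD14 ranged from 35.5 to 81.6. Of 5 epithelial genes listed, EPCAM (2.19 to 19.8) and CDH1 (13.1 to 101) were low. The summed level of the epithelial list was 135278 to 141103 with 2-APB, 110775 to 124368 with SKF-96365 and 115556 to 149409 in control, and KRT8 and KRT18 were higher in every 2-APB library than in any SKF-96365 library. KRT19 went the other way, at 6927 to 8384 with 2-APB and 8891 to 10059 with SKF-96365. The summed level of the 6 mesenchymal genes was 68461 to 73729 with 2-APB, 69738 to 85202 with SKF-96365 and 62655 to 77811 in control, with control 3, SKF-96365 2 and SKF-96365 3 highest. Of these 6 genes only 1, SPARC, had that top set itself, as did the epithelial KRT19. VIM was highest in 2-APB 3, SKF-96365 1 and control 1. ZEB1 was higher in every SKF-96365 library than in any other. The part of these shifts in the members' values was not tested. In bulk RNA, fewer cells of a type and less RNA per cell cannot be told apart.

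The pattern shared by most members followed the labels only in part, as control 3 stood with SKF-96365 2 and SKF-96365 3. For GDF15, CDKN1A, GADD45A, GADD45B, BBC3 and TP53INP1 the 3 highest libraries were control 3, SKF-96365 2 and SKF-96365 3. This set was on top in 6 of 10 members and in 16.4% of all tested genes. For GDF15, CDKN1A and GADD45A, SKF-96365 1 came next, so all their SKF-96365 libraries lay above all their 2-APB libraries. PHLDA3, MDM2, SESN1 and FAS each had another top set. Normalized counts, the authors' gene counts divided by 1 size factor per library, are the unit of every level below.

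**Figure D1:**
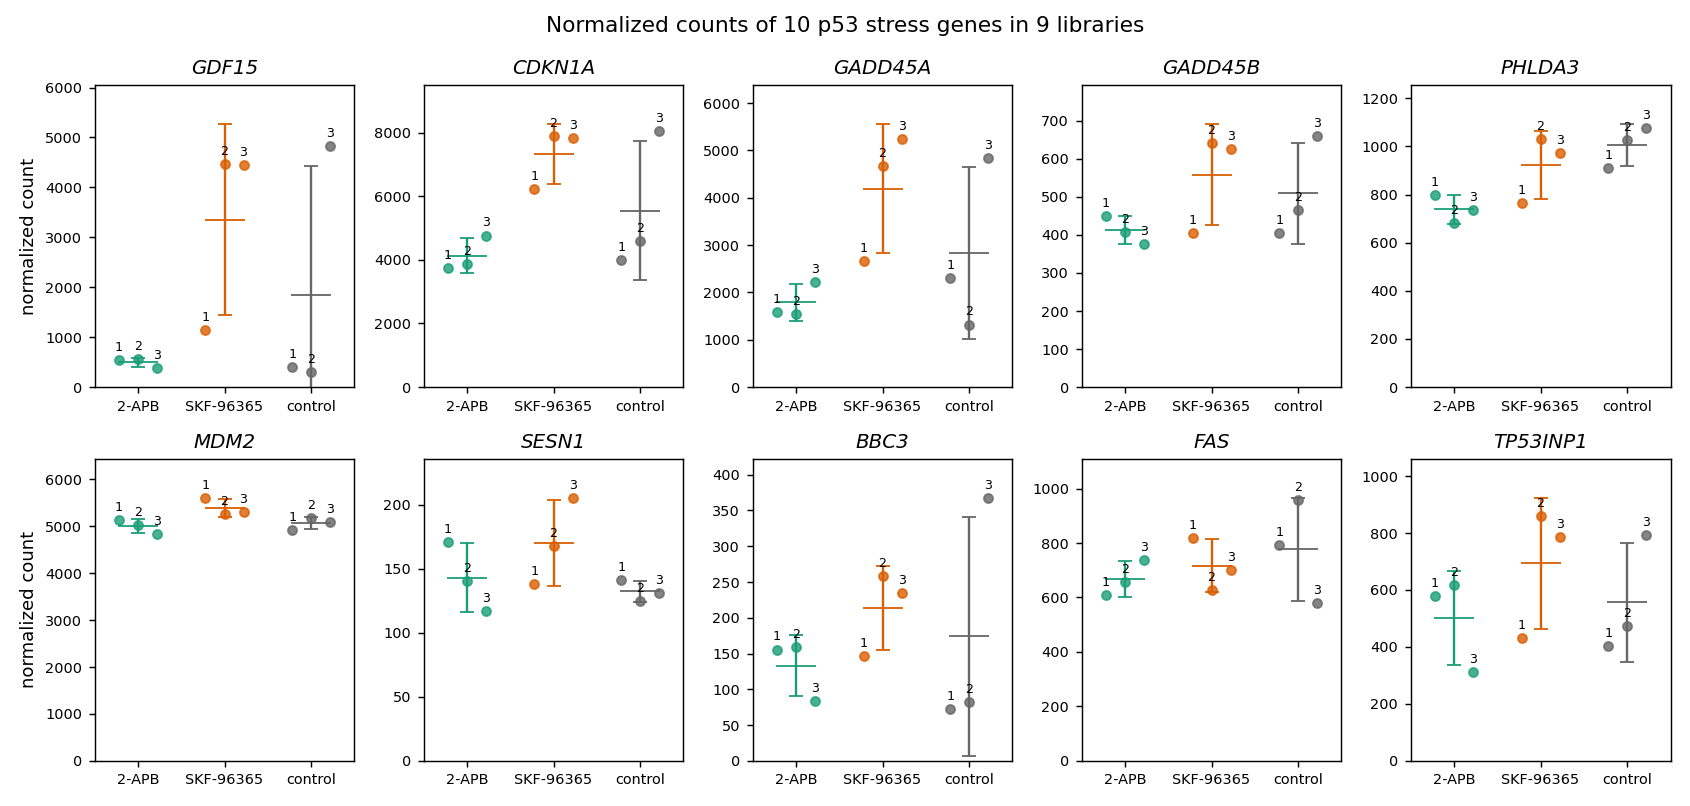
Normalized count of each of the 10 genes by group, with 1 point per library labelled by its replicate number and the group mean with its SD (n = 3); axes start at 0 and the lower SD bar of GDF15 in control is cut off there. Control 3 stands with SKF-96365 2 and 3 for GDF15, CDKN1A and GADD45A, and the 9 MDM2 points lie between 4843 and 5601.

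GDF15 (ENSG00000130513) encodes a secreted stress cytokine of the TGF-beta superfamily that lowers appetite through the receptor GFRAL. It was at 536, 558 and 389 in 2-APB libraries 1 to 3, at 1138, 4463 and 4444 in SKF-96365 libraries 1 to 3, and at 404, 298 and 4830 in control libraries 1 to 3. All 3 SKF-96365 libraries were above all 3 2-APB libraries, and the controls spanned both. The group means were 495 ± 91.7 with 2-APB, 3349 ± 1914 with SKF-96365 and 1844 ± 2586 in control (SD, n = 3). The highest library was 16.2 times the lowest. Of the 12381 tested genes with a mean of at least 50, 0.162% had a wider ratio of highest to lowest value (1 added to each). GDF15 was chosen with its control and 2-APB levels known, which include the highest and the lowest, so nothing is read from this rank. On the log2(value + 1) scale the difference was -2.53 (SE 0.90) for 2-APB against SKF-96365, -0.77 (SE 0.90) for 2-APB against control and 1.76 (SE 0.90) for SKF-96365 against control. Without control 3, the 2-APB value against control turned to 0.49 and the SKF-96365 value against control was 3.02. Without control 2, they were -1.51 and 1.02. On recovered reads of the 8 libraries without SKF-96365 3, edgeR gave GDF15 -1.91 for 2-APB against control and 0.60 for SKF-96365 against control. Without SKF-96365 1, GDF15 was at -3.19 for 2-APB against SKF-96365 and at 2.41 for SKF-96365 against control.

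The receptor side was almost silent. GFRAL had no value above 0 in 8 libraries and 1.01 in control 2. RET, the tyrosine kinase that GFRAL signals through, was at 8.77, 5.15 and 7.89 in 2-APB 1 to 3, at 5.24, 11.3 and 6.94 in SKF-96365 1 to 3, and at 8.42, 15.2 and 938 in control 1 to 3. The high RET value was thus in control 3 alone and not in the other libraries with high GDF15. FASLG, the ligand of FAS, was at 0 in 8 libraries and at 0.874 in SKF-96365 1.

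CDKN1A (ENSG00000124762) encodes p21, which inhibits cyclin-dependent kinases and binds the replication clamp PCNA. It was at 3740, 3878 and 4765 in 2-APB 1 to 3, at 6236, 7898 and 7824 in SKF-96365 1 to 3, and at 3984, 4592 and 8037 in control 1 to 3. The SKF-96365 libraries were all above the 2-APB libraries with no overlap, and control 1 and 2 lay in the 2-APB range while control 3 was the highest of all 9. Means were 4128 ± 556 with 2-APB, 7319 ± 939 with SKF-96365 and 5538 ± 2185 in control (SD, n = 3). The log2 difference was -0.83 (SE 0.23) for 2-APB against SKF-96365, -0.36 (SE 0.23) for 2-APB against control and 0.46 (SE 0.23) for SKF-96365 against control. SKF-96365 1, which lay near control 1 over all genes, was nearer to SKF-96365 2 and 3 for CDKN1A.

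GADD45A (ENSG00000116717) and GADD45B (ENSG00000099860) encode small proteins that bind PCNA and activate the kinase MAP3K4. GADD45A was at 1588, 1548 and 2230 in 2-APB 1 to 3, at 2659, 4679 and 5242 in SKF-96365 1 to 3, and at 2312, 1323 and 4851 in control 1 to 3. Its SKF-96365 and 2-APB libraries did not overlap, and the controls again spanned both. The log2 difference was -1.19 (SE 0.41) for 2-APB against SKF-96365, -0.48 (SE 0.41) for 2-APB against control and 0.71 (SE 0.41) for SKF-96365 against control. The GADD45A value of 2-APB against control was 0.01 without control 3 and -0.92 without control 2. GADD45B was at 451, 409 and 377 in 2-APB 1 to 3, at 406, 642 and 627 in SKF-96365 1 to 3, and at 406, 465 and 660 in control 1 to 3. Its 3 groups overlapped, and SKF-96365 1 stood with the lower libraries. GADD45G, the other family member, had no value above 1.04 in any library.

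MDM2 (ENSG00000135679) encodes the ligase that marks p53 for degradation. It was at 5130, 5031 and 4843 in 2-APB 1 to 3, at 5601, 5255 and 5303 in SKF-96365 1 to 3, and at 4921, 5178 and 5092 in control 1 to 3. The SKF-96365 libraries were above all other libraries, by little: the highest of the 9 libraries was 1.16 times the lowest, and 98.6% of the 12381 genes had a wider ratio. The log2 difference was -0.11 (SE 0.09) for 2-APB against SKF-96365, -0.02 (SE 0.09) for 2-APB against control and 0.09 (SE 0.09) for SKF-96365 against control. MDM2 thus varied least of the 10 genes and GDF15 most. Both had a match in a window, and whether a match bears on variation was not tested. The 2-APB value of MDM2 against control turned positive under both rescalings tried (0.02 with the upper quartile and 0.03 with the total) and without 2-APB 3 (0.01).

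**Figure D2:**
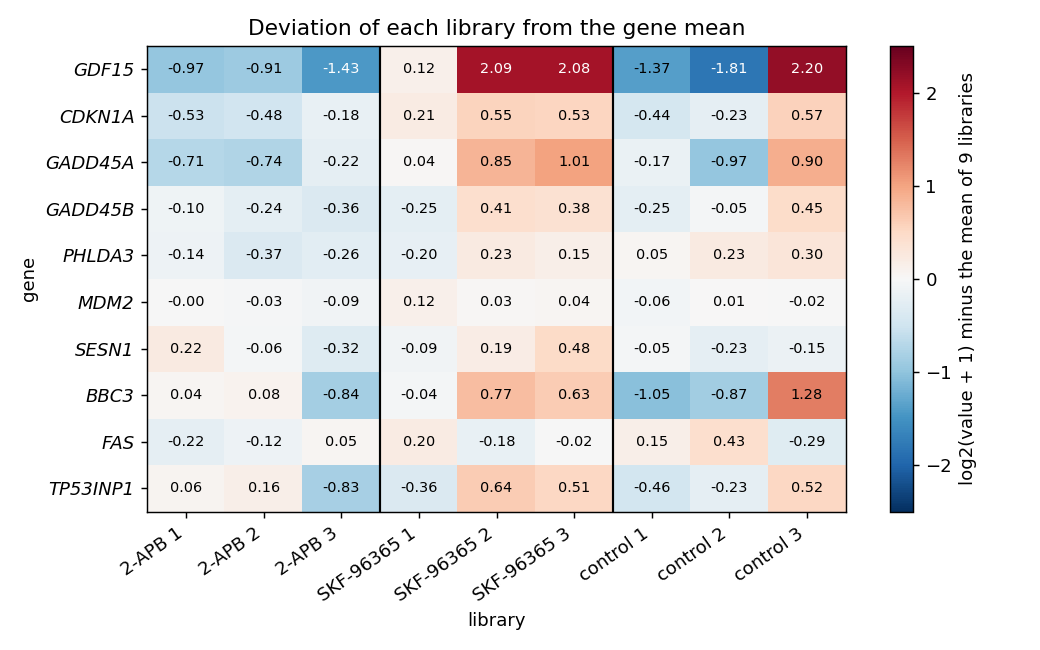
Log2(value + 1) of each gene in each library minus the mean of the gene over all 9 libraries, with vertical lines between the labelled groups. GDF15 stands at 2.09, 2.08 and 2.20 in SKF-96365 2, SKF-96365 3 and control 3 and at 0.12 in SKF-96365 1, while MDM2 stays between -0.09 and 0.12.

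PHLDA3 (ENSG00000174307) and SESN1 (ENSG00000080546) restrain growth signalling, PHLDA3 by keeping the kinase AKT from the membrane and SESN1 by holding back mTORC1. PHLDA3 was at 799, 681 and 735 in 2-APB 1 to 3, at 765, 1032 and 974 in SKF-96365 1 to 3, and at 910, 1029 and 1078 in control 1 to 3. It was the single member whose 2-APB libraries were all below the control libraries, with a log2 difference of -0.44 (SE 0.14). That value lay between -0.51 and -0.39 under all alternatives tried, the fit without control 3 among them. The PHLDA3 difference was known when the members were chosen, so this range is no support for it. Of all tested genes, 3.97% had all 2-APB libraries below control. SESN1 was at 171, 141 and 117 in 2-APB 1 to 3, at 138, 168 and 205 in SKF-96365 1 to 3, and at 141, 125 and 131 in control 1 to 3. Its groups overlapped and its highest library was 1.75 times its lowest. Of the paralogues, SESN2, an ATF4 target as well, was at 363, 381 and 458 in 2-APB 1 to 3, at 522, 510 and 526 in SKF-96365 1 to 3, and at 389, 416 and 591 in control 1 to 3. SESN3 did not pass the filter, and its highest value was 14.6 in control 3.

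BBC3 (ENSG00000105327) encodes PUMA, a BH3-only protein that frees BAX and BAK1 to open mitochondria, and FAS (ENSG00000026103) encodes a death receptor. BBC3 was at 156, 160 and 83.8 in 2-APB 1 to 3, at 147, 259 and 234 in SKF-96365 1 to 3, and at 72.6, 82.2 and 367 in control 1 to 3. Its groups overlapped and the highest library was 5.06 times the lowest. Its log2 difference was -0.03 (SE 0.54) for 2-APB against control, 0.72 without control 3 and 0.28 without 2-APB 3, and was also positive under both rescalings (0.01 and 0.02). For SKF-96365 against control BBC3 had 0.67 (SE 0.54), and 1.41 without control 3. FAS ran the other way across libraries: it was at 609, 656 and 739 in 2-APB 1 to 3, at 819, 627 and 702 in SKF-96365 1 to 3, and at 792, 957 and 580 in control 1 to 3. Control 3, the library highest in GDF15, CDKN1A, GADD45B, PHLDA3 and BBC3, was the lowest in FAS. The FAS differences were small in all contrasts, from -0.19 to -0.10, with an SE of 0.19 each, and the 2-APB value against SKF-96365 was 0.01 without SKF-96365 1.

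TP53INP1 (ENSG00000164938), which promotes p53 phosphorylation and autophagy, was at 578, 617 and 311 in 2-APB 1 to 3, at 432, 860 and 788 in SKF-96365 1 to 3, and at 402, 473 and 794 in control 1 to 3. The groups overlapped, and the lowest library was 2-APB 3. The log2 difference was -0.47 (SE 0.35) for 2-APB against SKF-96365, -0.15 (SE 0.35) for 2-APB against control and 0.32 (SE 0.35) for SKF-96365 against control. The TP53INP1 value of 2-APB against control was 0.14 without control 3 and 0.16 without 2-APB 3.

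In the order of group means, SKF-96365 was highest for 8 of the 10 members and 2-APB lowest for 9. Neighbours in that order overlapped in every member but MDM2, where SKF-96365 lay above control. Between groups at the ends of the order, 2-APB lay below SKF-96365 without overlap for GDF15, CDKN1A, GADD45A and MDM2, and below control for PHLDA3. Of all tested genes, 3.97% had all 2-APB libraries below control, 3.26% had all SKF-96365 libraries above control, and 8.79% had all 2-APB libraries below SKF-96365. In the opposite direction the shares were 3.61%, 2.94% and 8.21% in the same order, with 0 members. These contrasts were in view when the members were chosen, so nothing is read from the members' 1, 1 and 4 of 10. In limma, with Benjamini-Hochberg adjustment over the 17492 genes, 0 genes were called in any contrast (0% higher and 0% lower). The smallest adjusted p was 0.684 for 2-APB against SKF-96365, 0.9995 for 2-APB against control and 0.789 for SKF-96365 against control. An unadjusted p under 0.05 was held by 1277 genes (7.3%) for 2-APB against SKF-96365, 489 (2.8%) for 2-APB against control and 699 (4%) for SKF-96365 against control. By edgeR 0 genes were called in all 3 contrasts. By DESeq2 1 gene was called for 2-APB against SKF-96365, 0 for 2-APB against control and 2 for SKF-96365 against control. Both ran on recovered reads of 8 libraries, with SKF-96365 3 left out. The 2-APB and SKF-96365 contrasts with control share the control libraries.

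Over the members, the median log2 difference was -0.44 for 2-APB against SKF-96365, with 10 of 10 below 0, where all tested genes had a median of 0.01 and 51% above 0. It was -0.24 for 2-APB against control, with 9 of 10 below 0, where all tested genes had a median of -0.0016 and 49.7% above 0. It was 0.33 for SKF-96365 against control, with 8 of 10 above 0, where all tested genes had a median of -0.0043 and 49.5% above 0. The members were chosen with group differences known, so nothing is read from these medians and counts. Without control 3 the median for 2-APB against control was -0.00075, with 5 of 10 below 0, so the direction of the members in that contrast rested on 1 library. GDF15, GADD45A, BBC3 and TP53INP1 turned positive without it. In a fit without both control 3 and SKF-96365 1, chosen after the data were seen, the SKF-96365 value against control was 3.68 for GDF15, 1.66 for BBC3, 1.501 for GADD45A and 0.92 for TP53INP1.

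**Figure D3:**
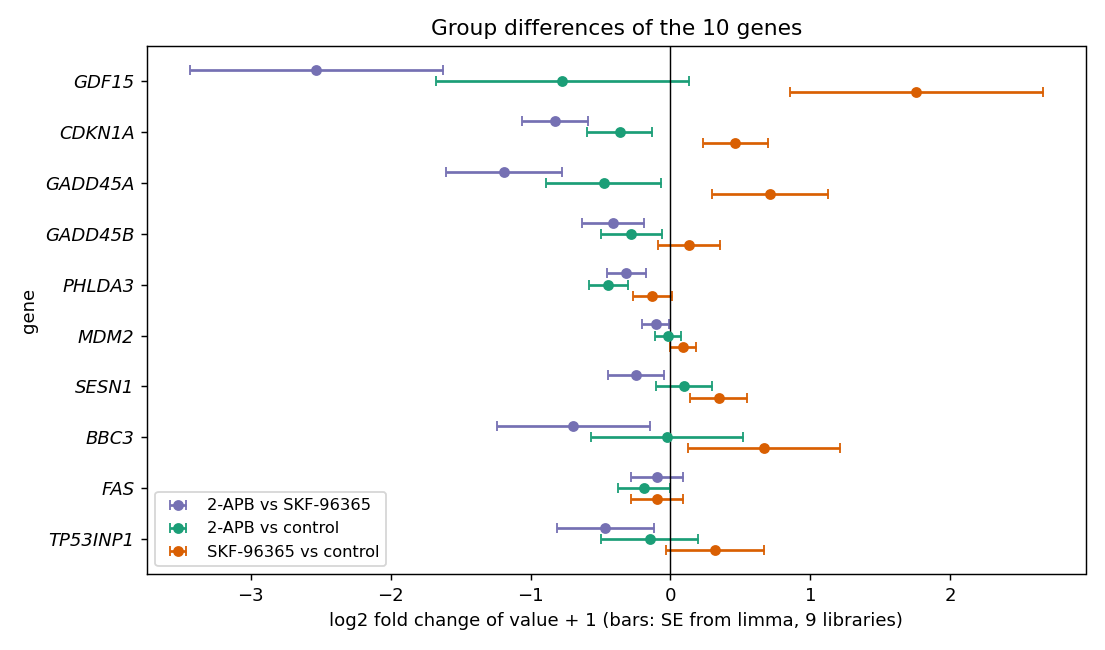
Log2 fold change of value + 1 for the 10 genes in each contrast, with bars of 1 SE from limma over 9 libraries. GDF15 has the widest spread of estimates, from -2.53 for 2-APB against SKF-96365 to 1.76 for SKF-96365 against control, and MDM2 sits near 0 in all 3.

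The other p53 targets on the list spread less, but the members were chosen with group differences known, so nothing is read from that. Of 52, 50 were tested and 0 were called in any contrast. Their median was -0.14 for 2-APB against SKF-96365 (31 of 50 below 0), -0.07 for 2-APB against control (35 of 50 below 0) and 0.05 for SKF-96365 against control (27 of 50 above 0). LIF, an interleukin-6 family cytokine, was at 881, 850 and 947 in 2-APB 1 to 3, at 1167, 1742 and 1539 in SKF-96365 1 to 3, and at 954, 1123 and 1699 in control 1 to 3. All its 2-APB libraries were below all other libraries, with a log2 difference of -0.45 (SE 0.21) against control and -0.71 (SE 0.21) against SKF-96365. LIF was 1 of 6 of the 50 with all 2-APB libraries below control, against 3.97% of all tested genes, and 0 had them all above, against 3.61%. This list too was chosen with earlier results known, so nothing is read from these counts. TP53I3, a quinone oxidoreductase linked to apoptosis, went the other way, at 394, 411 and 341 in 2-APB 1 to 3, at 308, 245 and 224 in SKF-96365 1 to 3, and at 380, 534 and 262 in control 1 to 3. The largest positive SKF-96365 values against control in this list were 0.41 (SE 0.21) for ANKRA2 and 0.41 (SE 0.20) for DCP1B. ABHD4 and TRIM22 had -0.41 (SE 0.25) and -0.38 (SE 0.35) for 2-APB against control.

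Regulators and relatives of p53 were described in the same way. MDM4, an MDM2 relative that blocks p53 activity, ranged from 2106 to 2432 with 2-APB, from 2090 to 2821 with SKF-96365 and from 2011 to 2610 in control. HIPK2, a kinase that phosphorylates p53, was at 1887, 2051 and 2714 in 2-APB 1 to 3, at 3531, 3126 and 3104 in SKF-96365 1 to 3, and at 2803, 2672 and 2900 in control 1 to 3. It was thus higher in every SKF-96365 library than in any other library, with a log2 difference of 0.22 (SE 0.14) against control. TP73 was at 180, 195 and 249 in 2-APB 1 to 3, at 140, 60.6 and 77.4 in SKF-96365 1 to 3, and at 239, 174 and 69.9 in control 1 to 3. TP63, which did not pass the filter, was at 96.0 in control 3 and at most 2.19 elsewhere. EP300, a p53 coactivator, had -0.30 (SE 0.16) for 2-APB and -0.33 (SE 0.16) for SKF-96365 against control. Of the 13 genes of this list 12 were tested, and 0 were called.

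Targets of ATF4 and CHOP, which also induce GDF15, were set beside it. ATF3 was at 170, 148 and 122 in 2-APB 1 to 3, at 266, 359 and 306 in SKF-96365 1 to 3, and at 119, 129 and 344 in control 1 to 3. DDIT3, which encodes CHOP, was at 169, 184 and 169 in 2-APB 1 to 3, at 243, 354 and 367 in SKF-96365 1 to 3, and at 112, 132 and 396 in control 1 to 3. Both had the GDF15 arrangement, with control 3, SKF-96365 2 and SKF-96365 3 highest and SKF-96365 1 next. STC2, a secreted glycoprotein, did too, at 448, 464 and 539 in 2-APB 1 to 3, at 659, 1503 and 1525 in SKF-96365 1 to 3, and at 408, 358 and 1548 in control 1 to 3. In all, 7 of the 20 tested targets had these 3 libraries on top, the others being CEBPB, PPP1R15A, ADM2 and ASNS, and 13 had another top set. The same set was on top in 16.4% of all tested genes, in 12 of 50 other p53 targets and in 4 of 7 paralogues. The lists were chosen with earlier results known, so nothing is read from these counts. PSAT1 (-2.07, SE 0.61) and ATF5 (-0.61, SE 0.32) were among the targets lower for SKF-96365 against control. TRIB3, a pseudokinase, ranged from 448 to 620 with 2-APB, from 543 to 622 with SKF-96365 and from 500 to 597 in control. ATF4 itself ranged from 3173 to 4144 with 2-APB, from 2715 to 4067 with SKF-96365 and from 2897 to 3748 in control. Over 20 tested genes of 21 listed, the median was -0.17 for 2-APB against SKF-96365 (13 of 20 below 0), -0.03 for 2-APB against control (11 of 20 below 0) and 0.21 for SKF-96365 against control (12 of 20 above 0), and 0 were called. ADM2, a secreted peptide, had the largest positive value for both compounds against control, 0.84 (SE 0.39) with 2-APB and 1.02 (SE 0.39) with SKF-96365, and CEBPB the lowest for 2-APB, -0.62 (SE 0.39). ASNS, the asparagine synthetase, had 0.51 (SE 0.54) and 0.96 (SE 0.54).

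Cell cycle genes that p21 is known to repress through the DREAM complex were set beside CDKN1A. Of 15 tested genes 0 were called, and the median was 0.19 for 2-APB against SKF-96365 (14 of 15 above 0), -0.05 for 2-APB against control (11 of 15 below 0) and -0.25 for SKF-96365 against control (14 of 15 below 0). CDK1, the mitotic kinase, was at 1741, 1761 and 2473 in 2-APB 1 to 3, at 1721, 1378 and 1368 in SKF-96365 1 to 3, and at 2341, 2398 and 1460 in control 1 to 3. The summed level of the list was 45804 to 53431 with 2-APB, 37113 to 51829 with SKF-96365 and 37236 to 63896 in control, and the lowest 3 libraries were SKF-96365 2, control 3 and SKF-96365 3. These are the libraries highest in CDKN1A. SKF-96365 1, the next in CDKN1A, had a summed level of 51829. The 2 libraries lowest in CDKN1A, 2-APB 1 and 2-APB 2, had 45804 and 46925. For TOP2A, the highest gene of the list, the order differed, with 11898 in SKF-96365 1 and 15254 and 15769 in 2-APB 1 and 2. Whether CDKN1A bears on this list, or the share of cycling cells on the members, was not tested. FOXM1 and PLK1 had -0.45 (SE 0.24) and -0.42 (SE 0.24) for SKF-96365 against control. For 2-APB against control, AURKA had -0.27 (SE 0.25), PLK1 -0.24 (SE 0.24) and CDC25C 0.20 (SE 0.15).

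Among paralogues and partners of the members, PHLDA1 was at 4419, 4650 and 5550 in 2-APB 1 to 3, at 6350, 7728 and 7909 in SKF-96365 1 to 3, and at 4726, 3774 and 7271 in control 1 to 3, an arrangement like that of CDKN1A and unlike that of PHLDA3. PHLDA2 was highest in control 1 (415) and lowest in SKF-96365 2 (176). CDKN1B, which encodes the related inhibitor p27, was at 568, 556 and 460 in 2-APB 1 to 3, at 480, 854 and 871 in SKF-96365 1 to 3, and at 527, 538 and 875 in control 1 to 3. TP53INP2 ranged from 252 to 308 with 2-APB, from 269 to 300 with SKF-96365 and from 212 to 303 in control. CCNE2, a cyclin whose kinase p21 inhibits, was at 180, 213 and 375 in 2-APB 1 to 3, at 169, 57.6 and 56.5 in SKF-96365 1 to 3, and at 344, 191 and 42.8 in control 1 to 3. It and CCNE1 (0.95, SE 0.38) were higher in every 2-APB library than in any SKF-96365 library, the reverse of CDKN1A. BCL2, an inhibitor of PUMA-driven death, had -0.44 (SE 0.23) for 2-APB and -0.43 (SE 0.23) for SKF-96365 against control. Of 7 tested paralogues and 18 tested partners, 0 were called. The paralogues' median was -0.21 for 2-APB against SKF-96365, -0.06 for 2-APB against control and 0.18 for SKF-96365 against control, and the partners' median was 0.06, -0.12 and -0.20 in the same order.

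**Figure D4:**
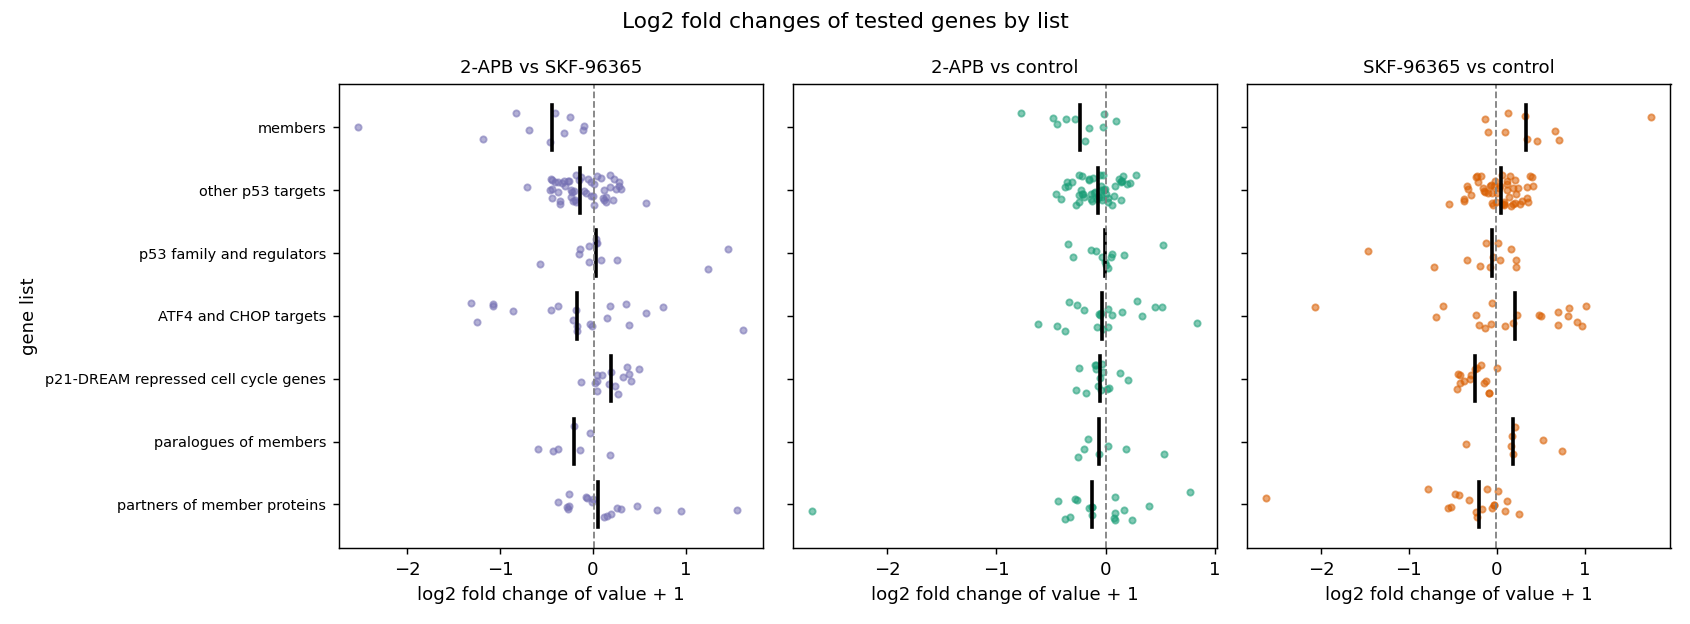
Log2 fold change of each tested gene by list, 1 panel per contrast, with a black bar at the median of the list and a dashed line at the median of all 17492 tested genes. In the panel of 2-APB against SKF-96365 the 10 members, chosen with group differences known, have a median of -0.44 and the 50 other p53 targets -0.14.

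The genes closest to GDF15 over the 9 libraries, by Pearson r of log2(value + 1) among genes with a mean of at least 50, were SAT1 (0.994), MRNIP (0.992), EPAS1 (0.992), CLIP2 (0.990) and PDP1 (0.988). SAT1, the enzyme that acetylates spermidine, was at 1125, 1068 and 1113 in 2-APB 1 to 3, at 1734, 3462 and 3358 in SKF-96365 1 to 3, and at 1025, 789 and 3612 in control 1 to 3. EPAS1, which encodes the hypoxia factor HIF-2 alpha, was at 2078, 2051 and 1680 in 2-APB 1 to 3, at 2516, 6475 and 6423 in SKF-96365 1 to 3, and at 1521, 1561 and 6157 in control 1 to 3. Those closest to CDKN1A were UBALD2 (0.993), RNF19B (0.985), PHF7 (0.983), APBB1IP (0.983) and DENND5A (0.983). The 9 points fall into clusters of alike libraries, so these coefficients describe the shared order of libraries only.

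Strand use in counting is not given in the sources used here, so reads of overlapping genes cannot be told apart. In GENCODE 29, FAS overlaps ACTA2, which ranged from 71.6 to 154, TP53INP1 overlaps NDUFAF6, from 173 to 300, and MDM2 overlaps CPM, from 35.2 to 70.8, all on the other strand. GDF15 hosts MIR3189 on its own strand, with at most 16.7, and the transcript annotated as DINOL, opposite to CDKN1A, had at most 7.30.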

How the data were processed

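Per the labels' protocols, RNA was extracted with a column kit and sequenced as SMARTER mRNA libraries. The deposited values are a normalized signal: gene counts the authors scaled with DESeq2 (version not given in the sources used here), per the submitters' processing notes. Aligner, counter, build, annotation and strand setting are not given in the sources used here. Symbols were matched by Ensembl identifier. Values above 0 were whole multiples of each library's smallest value (100% within 0.001 of a read). This gave whole reads in all 9 libraries. SKF-96365 3 was nonetheless left out of the count tests because its step, 0.992, was near 1. The steps of 2-APB 3 (0.986) and control 2 (1.014) were almost as near 1, and these libraries were kept. Reads carry no labelled molecular identifiers, so a read need not be a separate molecule.

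Differences were fitted with limma 3.58.1 (intensity trend, R 4.3.3) on log2(value + 1), which understates differences of low genes. All 9 libraries entered 1 fit, and two-sided p-values were adjusted by Benjamini-Hochberg at 0.05. Alternatives were pseudocounts of 0.5 and 5, other filters, 2 rescalings, only the groups compared, omission of single libraries, a replicate block, and 2 count tests on recovered reads (DESeq2 1.42.0, edgeR 4.0.16), which were tested on simulated data along with limma. Members and lists were chosen with earlier results of these data known. Named beside the members were set regulators and receptors, the 3 most different genes of each list per contrast with control, given a mean of 50 or more, and the 5 genes most like GDF15 and CDKN1A. GADD45G, SESN3, FASLG, PPP1R15A, PSAT1, ATF5, TOP2A, the cell type markers and the overlapping genes were named outside this rule, with their values seen. One listed regulator and one listed marker are not reported here.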

Additional observations from a re-analysis of the deposited data

How the results depend on the processing

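The count of called genes was 0 in each contrast and stayed 0 under both pseudocounts, both filters, both rescalings and the replicate block. With only the 2 groups compared, limma called 4 genes for 2-APB against SKF-96365, and DESeq2 on recovered reads called 1 there and 2 for SKF-96365 against control. With each library left out in turn, the count ran from 0 to 173 for SKF-96365 against control (173 without control 3), from 0 to 4 for 2-APB against SKF-96365 (4 without control 3), and was 0 throughout for 2-APB against control. After the data were seen, a fit without both control 3 and SKF-96365 1 was added. It called 4823 genes for SKF-96365 against control, 2283 for 2-APB against SKF-96365 and 0 for 2-APB against control, and the members' median for SKF-96365 against control was 0.71 in place of 0.33. The 2 libraries were left out because they stood with another group, so the p-values of that fit are too small. Of 30 member differences, 10 changed sign under at least 1 of 20 settings, 6 of them for 2-APB against control. Whether the labels' replicate numbers pair libraries cannot be told. Over the 9 same-numbered pairs the correlation of deviations from group means ran from -0.35 to 0.50 and passed 0.1 in 3. With 3 libraries a group these deviations sum to 0, and some libraries stood with another group, so the correlations cannot decide it. The replicate block gave 431 genes at an unadjusted p under 0.05 for 2-APB against control, 717 for SKF-96365 against control and 1259 for 2-APB against SKF-96365. Depth did not limit the members, whose smallest count was 69 reads.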
